A study of Mus musculus with 6 samples.

Results

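The cytosolic small ribosomal subunit is the part of the ribosome that binds messenger RNA and reads its codons. Its proteins sit on a single ribosomal RNA and fall into a head, a platform and a body, and each is made from its own messenger RNA. In many vertebrates these messenger RNAs begin with a C followed by a run of pyrimidines, the TOP motif, through which mTOR signalling sets how much of them is translated. In heart muscle, ribosome content and protein synthesis rise when cardiomyocytes enlarge.

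The transcripts described here are the 33 rows, of 54532 in the table, that are annotated as protein-coding and carry the name Rpsa or Rps followed by a number. Ribosomal S6 kinases, Rps19bp1 and pseudogene names were left out. Of the 33, 32 were abundant enough to be tested. Rps10 was not, and is given as values.

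RNA came from the myocardium of hypertrophic hearts of wild-type C57BL/6 mice aged 18 weeks, in 2 groups of 3 samples. The control group had been given AAV9-EGFP, an adeno-associated virus of serotype 9 that carries a green fluorescent protein. The other group had been given AAV9-anti-miR-199a-TuDs, the same kind of virus carrying tough decoys (TuDs), RNA hairpins that hold a microRNA away from its targets. All hearts in both groups thus carried AAV9 and were hypertrophic, and no untreated or non-hypertrophic heart is among the samples used here. The labels give neither the promoter that drives the decoys, the dose, the sex, the way hypertrophy was induced, nor whether each sample is a separate animal. The p-values therefore measure the spread between these samples, which may be technical. The comparison asks how decoys against miR-199a change messenger RNA levels in such hearts.

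Each library held 15.2 to 18.2 M gene-assigned reads (M, megareads), and all 8 cardiomyocyte markers were detected in every group at a summed 27870 to 37519 normalised FPKM. FPKM are reads per kilobase of gene and per megaread, and normalised FPKM have been divided by a size factor for each library. Transcripts of Y-linked genes were present in all 3 control libraries and in TuD replicate 3 (summed FPKM 8.32 to 12.5) but nearly absent from TuD replicates 1 and 2 (0.0254 and 0.00711), which the labels do not describe. The libraries of the TuD group therefore differ from the controls in this respect as well as in treatment. Counts with a term for this difference are given below, with the members whose call it ended. Xist, a transcript of the X chromosome, measured 1.42, 0.128 and 0.0166 FPKM in TuD replicates 1, 2 and 3 and 0 in all controls. TuD replicates 1 and 2 thus differed from each other in Xist.

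The decoys are named for miR-199a, and the sample names do not say which of its mature strands they hold. These strands are shown here because their seeds, bases 2 to 8 in capitals, set which transcripts the microRNA can pair with. Both strands arise from Mir199a-1 on chromosome 9 and from Mir199a-2 on chromosome 1 (RefSeq, GRCm38.p6).

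mmu-miR-199a-5p: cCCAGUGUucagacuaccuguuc
mmu-miR-199a-3p: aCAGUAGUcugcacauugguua

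The 7 bases that pair with the 5p seed, ACACTGG, occur in the longest annotated 3′ UTR of 1 of the 33 transcripts, that of Rps10, or 3.03%. Over all protein-coding genes with an annotated 3′ UTR the share was 13.4% of 21000. The 7 bases that pair with the 3p seed, ACTACTG, occur in 0 of the 33 against 7.70% of all. The 3′ UTRs of small-subunit transcripts are short, with a median of 160 bases against 961, and no comparison at matched length was made. A match describes these letters only, and sites outside the 3′ UTR were not searched.

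The other sequence shown is the start of the transcript, because the TOP motif lies there. The annotated start in RefSeq had a C followed by at least 4 more pyrimidines (C or T, read on the transcribed strand only) in 7 of the 25 small-subunit genes with a promoter entry, or 28.0%. The share was 17.5% of 40 large-subunit genes and 2.72% of 16497 protein-coding genes. A gene was counted when any of its entries held the motif. The windows below hold the 15 bases before the start and the first 15 of the transcript, on GRCm38.p6, with the run of pyrimidines from the start in capitals.

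Rps6 (chr4:86857353-86857382, minus strand): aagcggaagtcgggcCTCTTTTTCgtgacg
Rps18 (chr17:33955651-33955680, minus strand): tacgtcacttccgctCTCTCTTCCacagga
Rps15a (chr7:118116133-118116162, minus strand): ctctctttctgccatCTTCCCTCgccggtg
Rps21 (chr2:180257364-180257393, plus strand): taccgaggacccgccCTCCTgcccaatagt
Rps27 (chr3:90213634-90213663, minus strand): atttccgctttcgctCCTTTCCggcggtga
Rps27rt (chr9:114982725-114982754, minus strand): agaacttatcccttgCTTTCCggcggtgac
Rps10 (chr17:27635230-27635259, minus strand): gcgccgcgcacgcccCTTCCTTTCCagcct

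An annotated start can lie some bases from the start used in the heart, and absence of the run from a window says only that these letters are not there.

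In the TuD hearts nearly every small-subunit transcript stood above its control level. Of the 32 tested, 30 rose, 0 fell and 2 did not pass the test (limma with Benjamini-Hochberg adjustment over 10460 genes, threshold 0.05). Among all tested genes 14.8% rose and 14.2% fell. The median log2 fold change, TuDs minus AAV9-EGFP, was +0.80 for the 32 transcripts and +0.01 for all tested genes. In 31 of the 32, all 3 TuD libraries lay above all 3 controls, against 23.5% of all tested genes. The 30 that rose had log2 fold changes between +0.54 and +1.68 and adjusted p-values between 0.0016 and 0.0396. Of the 32, 9 passed and were at least 2-fold higher, against 228 of all 10460 tested genes. The 9 include Rps27, which is read below together with Rps27rt.

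**Figure D1:**
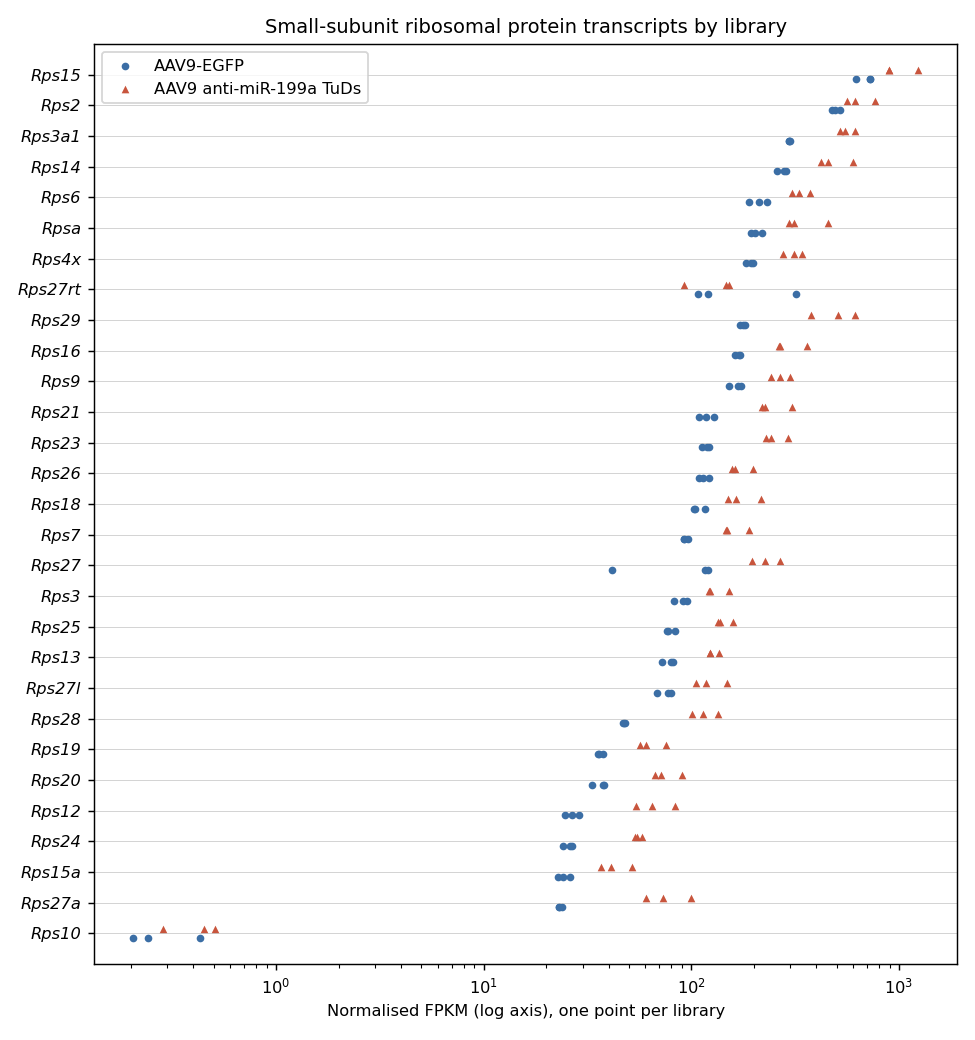
Normalised FPKM on a log axis for 29 of the small-subunit transcripts, ordered by their control mean, with 1 point for each library (circles AAV9-EGFP, triangles AAV9-anti-miR-199a-TuDs). The TuD points lie to the right of the control points in all rows but Rps10 and Rps27rt, and in Rps27 and Rps27rt 1 control point stands apart.

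Replicate spread was smaller in the controls than in the TuD group, with median coefficients of variation of 6.03% and 16.5% over the 32 transcripts. TuD replicate 2 was the highest library of its group for all 32. Against the control mean, the median transcript stood 0.66 higher on the log2 scale in TuD replicate 1, 1.04 in TuD replicate 2 and 0.67 in TuD replicate 3. Each TuD library taken alone was above every control for 31 of the 32. TuD replicate 3, whose Y-linked transcripts match those of the controls, was thus among them. With a term for Y-linked transcripts, which rests the estimate on TuD replicate 3, 15 transcripts rose and 0 fell, against 6.12% of all genes, and 31 of 32 estimates were positive with a median of +0.67. The call ended for 15 members under this term. Among those described below, the adjusted p-values by limma became 0.136 for Rpsa (+0.52), 0.117 for Rps3 (+0.45), 0.266 for Rps15 (+0.38), 0.116 for Rps27 (+1.44), 0.0968 for Rps27l (+0.49) and 0.0553 for Rps6 (+0.65). Those of Rps14 (+0.73), Rps15a (+0.59), Rps16 (+0.67), Rps18 (+0.48) and Rps26 (+0.45) lay between 0.0570 and 0.120.

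Among the proteins of the head, which contacts tRNAs as they move through the ribosome, 13 of 13 tested transcripts rose, with a median log2 fold change of +0.85. Rps27a had the highest fold change of all. It encodes ubiquitin fused to a small-subunit protein and lies at chr11:29545846-29548109 on the minus strand. Its normalised FPKM was 23.9, 23.0 and 23.1 in the controls and 72.7, 99.2 and 60.2 in the TuD hearts. The controls lay within 1 unit of one another and every TuD library was far above them (+1.68 ± 0.17, SE, adjusted p = 0.0019, limma).

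Rps29, a small zinc-binding protein of the head (chr12:69157722-69159186, minus strand), followed. It measured 181, 171 and 177 normalised FPKM in the controls and 510, 611 and 378 in the TuD hearts. No library of either group overlapped the other, and the log2 fold change was +1.47 ± 0.17 (SE, adjusted p = 0.0023, limma). Rps12, at the beak of the head (chr10:23785183-23787275, minus strand), measured 24.5, 28.8 and 26.6 in the controls and 64.4, 83.0 and 54.4 in the TuD hearts. Its groups were likewise separate (+1.30 ± 0.16, SE, adjusted p = 0.0025, limma). Rps28 (+1.28) and Rps20 (+1.05) were the other head transcripts that rose at least 2-fold. Rps25 (+0.85), Rps16 (+0.80) and Rps18 (+0.70) rose by less. Rps25, which many viral internal ribosome entry sites need, had a narrow spread, at 76.4 to 83.7 normalised FPKM in the controls and 134 to 159 in the TuD hearts.

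Rps19 is the protein most often mutated in Diamond-Blackfan anaemia of people, an inherited failure of red cell production. It measured 35.7, 37.6 and 35.9 normalised FPKM in the controls and 60.1, 75.2 and 56.4 in the TuD hearts. The groups were separate, at +0.79 ± 0.13 (SE, adjusted p = 0.0048, limma).

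Rps3 and Rps15 had the smallest fold changes in the head. Rps3, which lies at the channel where messenger RNA enters (chr7:99477896-99483738, minus strand), measured 82.2, 95.4 and 91.2 in the controls and 121, 151 and 122 in the TuD hearts. Its groups did not overlap (+0.55 ± 0.13, SE, adjusted p = 0.0154, limma), but without AAV9-EGFP replicate 1 the adjusted p was 0.0522. Rps15, which reaches towards the decoding site (chr10:80292453-80294114, plus strand), had the highest control level of all members. It measured 621, 726 and 723 in the controls and 898, 1237 and 896 in the TuD hearts, again with no overlap (+0.54 ± 0.16, SE, adjusted p = 0.0396, limma). The Rps15 call was the least secure: it ended when any library other than TuD replicate 3 was left out, with adjusted p-values of 0.0543 to 0.119 without each of the other 5.

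Of the transcripts grouped with the platform, the side on which messenger RNA leaves the subunit, 8 of 8 rose, with a median of +0.80. Rpsa, which also serves as a laminin receptor at the cell surface, measured 194, 218 and 202 normalised FPKM in the controls and 313, 454 and 294 in the TuD hearts. All TuD libraries were above the controls (+0.76 ± 0.17, SE, adjusted p = 0.0141, limma). Rps26, which contacts the messenger RNA near the exit, had the lowest fold change of the 8 (+0.58). Rps13 (+0.71), Rps7 (+0.77), Rps14 (+0.83), Rps3a1 (+0.91) and Rps21 (+1.06) lay between it and Rps27.

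Rps27 was the platform transcript with the highest fold change (chr3:90212522-90213651, minus strand), and it cannot be read apart from Rps27rt. Rps27rt, at chr9:114982366-114982739 on the minus strand, is a retrogene, a copy of the processed transcript set back into the genome. Of all 50-base words in the Rps27 transcript, 98.6% also occur in that of Rps27rt. Rps27 measured 41.4, 116 and 120 normalised FPKM in the controls and 195, 267 and 227 in the TuD hearts (+1.44 ± 0.37, SE, adjusted p = 0.0231, limma). Rps27rt measured 319, 120 and 107 in the controls and 148, 152 and 92.3 in the TuD hearts (-0.33 ± 0.39, SE, adjusted p = 0.556, limma). AAV9-EGFP replicate 1 was low for Rps27 and high for Rps27rt, and no other library showed that exchange.

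In reads, Rps27rt took 73.4% of the pair in AAV9-EGFP replicate 1, 27.1% and 24.2% in the other controls and 12.7% to 21.4% in the TuD libraries. The sum of the pair showed no such outlier. It was 171, 179 and 175 reads per megaread in the controls and 243, 318 and 272 in the TuD hearts. The means were 175 ± 4.0 and 278 ± 37.8 (SD, n = 3 each), a ratio of 1.59, or +0.66 on the log2 scale. Without AAV9-EGFP replicate 1, Rps27 had a log2 fold change of +0.94 (adjusted p = 0.0136, limma) and Rps27rt one of +0.16 (adjusted p = 0.638, limma). Without TuD replicate 2 the Rps27 call was lost (adjusted p = 0.0691, limma). Whether the reads of AAV9-EGFP replicate 1 differ in expression or in assignment was not tested.

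**Figure D2:**
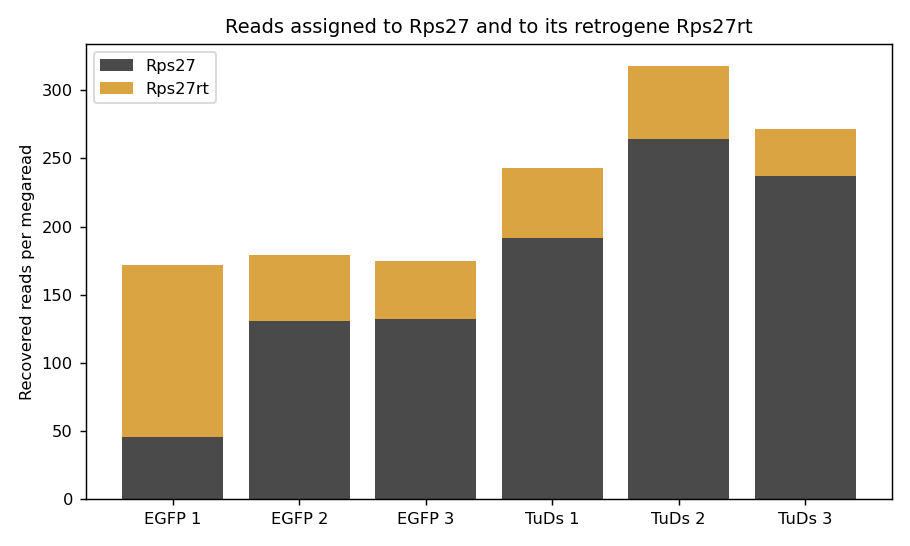
Recovered reads per megaread assigned to Rps27 (dark) and Rps27rt (light) in each library, stacked from 0. Rps27rt holds most of the pair in AAV9-EGFP replicate 1, while the sum lies between 171 and 179 in all controls and between 243 and 318 in the TuD libraries.

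Of the 9 tested proteins of the body, 8 rose, with a median of +0.72. Rps24 (chr14:24487125-24496959, plus strand) had the smallest adjusted p of all members and a tight TuD group. It measured 26.6, 24.1 and 26.0 normalised FPKM in the controls and 54.8, 57.9 and 53.4 in the TuD hearts (+1.10 ± 0.10, SE, adjusted p = 0.0016, limma). Rps23, a protein of the decoding centre, was at +1.10 as well. Rps15a (+0.80) and Rps9 (+0.70) also rose, and their control and TuD libraries did not overlap.

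Rps6 is the protein that S6 kinases phosphorylate downstream of mTOR, and its window above has a run of 9 pyrimidines. It measured 190, 231 and 212 in the controls and 305, 371 and 331 in the TuD hearts. The groups were separate (+0.67 ± 0.13, SE, adjusted p = 0.0083, limma). Rps4x, encoded on the X chromosome, measured 183, 199 and 194 in the controls and 276, 340 and 312 in the TuD hearts. Its TuD libraries with and without Y-linked transcripts were all above the controls (+0.68 ± 0.12, SE, adjusted p = 0.0062, limma). Rps4l, a relative of Rps4x, is annotated as a transcribed processed pseudogene and is therefore no member (-0.05, adjusted p = 0.817, limma).

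Rps2 was the body transcript that did not pass. It lies at the channel by which messenger RNA enters (chr17:24718116-24721929, plus strand). Its normalised FPKM was 474, 517 and 491 in the controls and 612, 769 and 563 in the TuD hearts. All TuD libraries exceeded the controls, but the spread among them left +0.38 ± 0.14 (SE, adjusted p = 0.0783, limma). Leaving out TuD replicate 3 brought the adjusted p to 0.0353.

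Rps27l, a paralog of Rps27 known in human cells as a target of p53, measured 68.5, 79.5 and 76.8 in the controls and 118, 149 and 106 in the TuD hearts. The groups did not overlap (+0.71 ± 0.14, SE, adjusted p = 0.0099, limma). Rps27l and Rps27 rose while Rps27rt did not pass, and the difference between the paralogs was not tested.

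Rps10, a protein of the head at the entry channel, was listed at 0.205, 0.241 and 0.433 normalised FPKM in the controls and 0.509, 0.449 and 0.285 in the TuD hearts. Those values rest on 9 to 19 reads a library, and the groups overlap. Pseudogenes named for Rps10 held 9068 reads against 83 for the gene itself, 99.1% of the sum. Rps10-ps2 held most of them, at 146, 160 and 153 normalised FPKM in the controls and 146, 192 and 177 in the TuD hearts (+0.16, adjusted p = 0.372, limma). RPS10-NUDT3, another protein-coding gene on the same strand (chr17:27580780-27635222), overlaps Rps10 and held 0 reads in every library. Of all 50-base words in the Rps10 transcript, 50.8% also occur in transcripts of RPS10-NUDT3. The part of this overlap or of the pseudogenes in the low Rps10 count was not tested. The level of Rps10 messenger RNA is therefore uncertain. For the other 22 members with a named pseudogene, adding the pseudogene reads moved the log2 ratio of summed reads by at most 0.0322, in Rps16.

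Transcript length moved with the fold changes across the whole table. Over 10460 genes the log2 fold change had a Pearson correlation of -0.446 with the log10 length of the principal transcript, a description over genes of the same 6 libraries. With genes cut into 10 equal groups by length, the shortest, up to 889 bases, had a median of +0.56 and holds 19 of the 32 members. The next, up to 1378 bases, had a median of +0.34 and holds 8. Among the 32 members themselves the correlation with length was -0.05 and that with GC content was 0.03. The correlation with log2 of the control mean was -0.47, with transcripts of lower control level showing larger fold changes. All these values come from the same libraries, and the control mean is also part of the fold change.

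**Figure D3:**
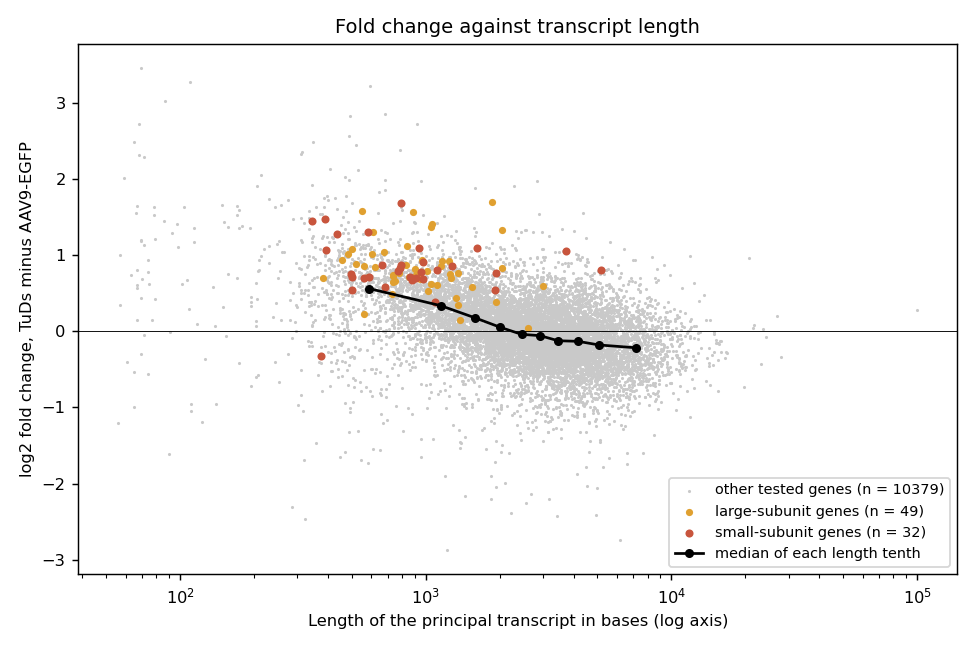
Log2 fold change (TuDs minus AAV9-EGFP) against the length of the principal transcript on a log axis, for the 10460 tested genes, with the medians of 10 length groups joined by a line. Most small-subunit transcripts lie in the 2 shortest groups, whose medians are +0.56 and +0.34, and most lie above those medians.

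After a correction for the trend with transcript length, 22 members rose and 0 fell, against 9.92% of all genes, and their median was +0.46. The estimates stayed positive for 31 of the 32. The call ended for 8 members, among them Rps6 (+0.30, adjusted p = 0.0628), Rps13, Rps15, Rps18, Rps26, Rps27 and Rps27l, by limma. Rps27a (+1.28), Rps20 (+1.16), Rps24 (+0.97) and Rps15a (+0.95) then had the highest fold changes. For Rps20 and Rps15a the annotated principal transcripts are long, 3706 and 5179 bases, which places them with long genes in this correction. What sets the length trend was not tested.

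**Figure D4:**
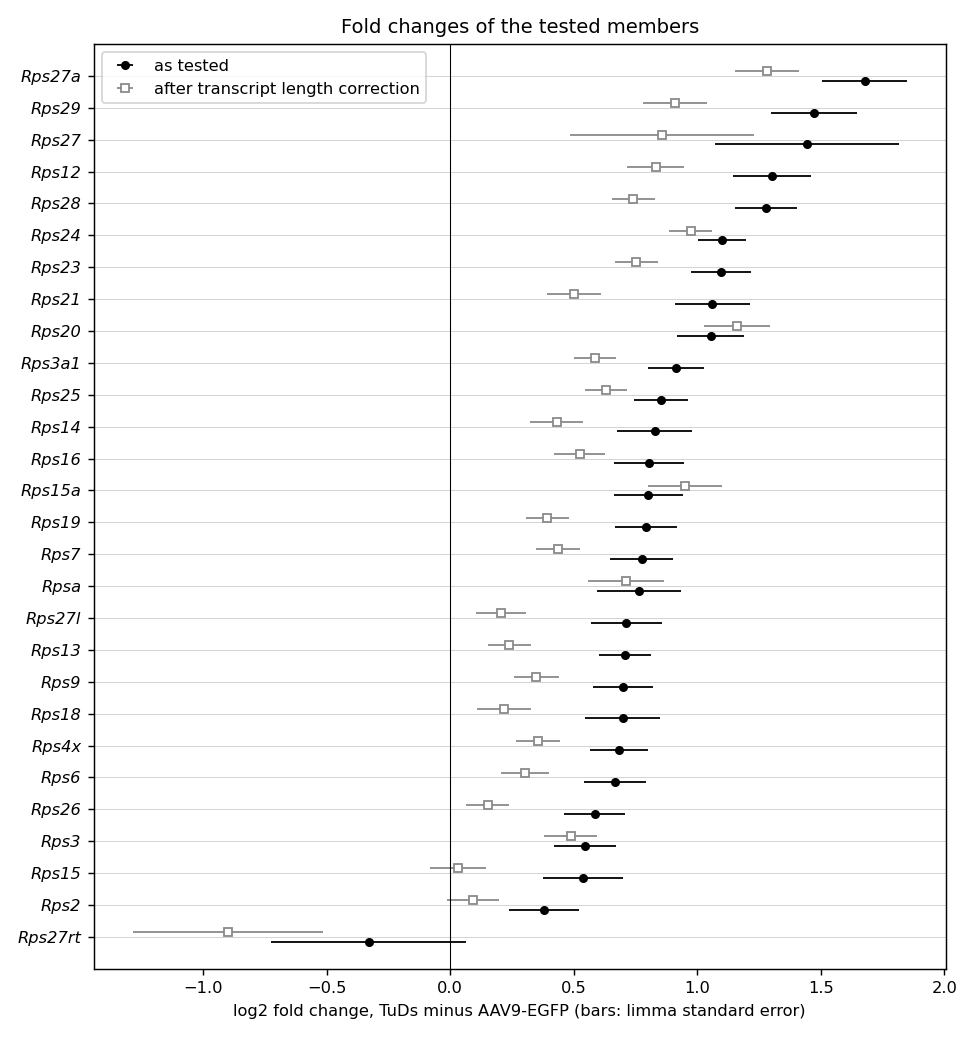
Log2 fold change (TuDs minus AAV9-EGFP) with its limma standard error for 28 of the tested members, as tested (filled) and after the correction for transcript length (open). As tested all but Rps27rt lie right of 0, and the correction moves most estimates left.

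Small-subunit transcripts took up 0.784%, 0.875% and 0.845% of all reads in the controls and 1.16%, 1.5% and 1.22% in the TuD hearts. The highest control was below the lowest TuD library. The means were 0.835% ± 0.0462 and 1.29% ± 0.180 (SD, n = 3 each), a ratio of 1.55. Transcripts encoded by the mitochondrial genome took 12.0%, 5.31% and 8.29% of reads in the controls and 17.5%, 12.6% and 11.1% in the TuD hearts. These groups overlap, since AAV9-EGFP replicate 1 lies above TuD replicate 3. The means were 8.52% ± 3.33 and 13.7% ± 3.33 (SD, n = 3 each), and their part in the other shares was not tested. Without them the small-subunit mean was 0.912% ± 0.0184 in the controls and 1.5% ± 0.19 in the TuD hearts (SD, n = 3 each). In bulk tissue, a change in the mix of cells and a change in RNA per cell cannot be told apart.

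**Figure D5:**
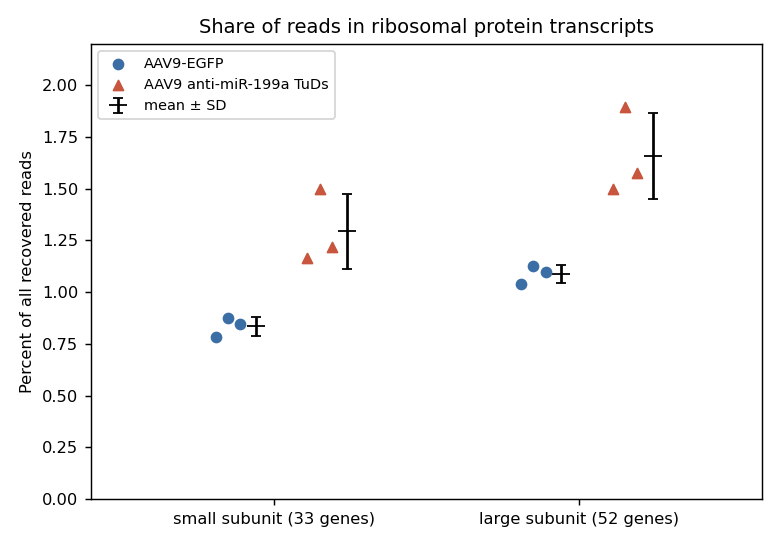
Percent of all recovered reads in the 33 small-subunit and 52 large-subunit transcripts, with 1 point for each library and the mean ± SD beside it. In both subunits the 3 TuD points lie above the 3 control points, with TuD replicate 2 highest.

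Large-subunit transcripts moved in the same direction. Over all tested genes 14.8% rose and 14.2% fell. The share of all genes that rose was 9.92% after the length correction, 6.12% with the Y-linked term and 4.19% rescaled to TPM. Of 49 tested large-subunit transcripts 42 rose and 0 fell, with a median of +0.77, and their share of all reads went from 1.09% ± 0.0439 to 1.66% ± 0.210 (SD, n = 3 each). After the length correction 32 rose, with a median of +0.43, and with the Y-linked term 24 rose, with a median of +0.65. Among pseudogenes named for the small-subunit genes, 25 of 108 were tested, and 16 rose and 0 fell. After the length correction 7 of them rose and 1 fell, and with the Y-linked term 4 rose and 0 fell. Rescaled to TPM, 23 of the 49 large-subunit transcripts and 10 of the 25 pseudogenes rose, and 0 of either fell. Reads of the pseudogenes cannot be told from those of the parent genes where sequences are near identical.

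Partners of the small subunit outside the naming rule were also higher. Fau, which encodes a ubiquitin-like protein fused to the small-subunit protein eS30, measured 271, 295 and 297 normalised FPKM in the controls and 437, 580 and 478 in the TuD hearts (+0.78 ± 0.13, SE, adjusted p = 0.0062, limma). Rack1, a scaffold on the head, measured 76.7, 86.5 and 83.4 in the controls and 114, 147 and 118 in the TuD hearts (+0.61 ± 0.13, SE, adjusted p = 0.0108, limma), and its call ended with the Y-linked term (adjusted p = 0.0896, limma). Both sets of TuD values were above all controls.

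Factors that assemble the small subunit in the nucleolus and cytoplasm were mixed. Of 33 tested, 2 rose and 6 fell, with a median of +0.01, where 14.8% of all genes rose and 14.2% fell. The counts were 0 and 3 after the length correction, 0 and 15 after rescaling to TPM, and 0 and 1 with the Y-linked term. Over all 10460 tested genes, the background for this list and those below, 1038 rose and 1146 fell after the length correction. Rescaled to TPM, 438 of them rose and 4202 fell, and with the Y-linked term 640 rose and 543 fell. Tsr1, a late cytoplasmic assembly factor, fell from 2.39, 2.62 and 2.48 normalised FPKM in the controls to 1.26, 0.847 and 1.33 (-0.88 ± 0.15, SE, adjusted p = 0.0062, limma). Nol6, a nucleolar factor, fell from 7.17, 6.56 and 6.57 to 4.74, 3.99 and 4.64 (-0.56 ± 0.11, SE, adjusted p = 0.0094, limma). Both groups of values were separate. Imp3 (+0.49) and Tsr3 (+0.43) were the factors that rose.

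Among initiation factors that bind the small subunit, 11 of 22 rose and 0 fell, with a median of +0.39, where 14.8% of all genes rose and 14.2% fell. Rescaled to TPM, 0 rose and 4 fell, where 4202 of all 10460 tested genes fell. After the length correction 7 rose and 0 fell, and with the Y-linked term 5 rose and 0 fell. Eif1, which guards start codon choice, measured 235, 242 and 245 normalised FPKM in the controls and 386, 399 and 381 in the TuD hearts (+0.69 ± 0.10, SE, adjusted p = 0.0039, limma). Eif3j1, a subunit of eIF3, measured 3.99, 3.80 and 4.06 in the controls and 6.50, 6.37 and 6.05 in the TuD hearts (+0.61 ± 0.10, SE, adjusted p = 0.0051, limma). Replicates of both genes lay close together within each group.

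Of the mTOR, S6 kinase and TOP regulators, 1 of 19 rose and 8 fell, with a median of -0.17. Over all genes 14.8% rose and 14.2% fell, and rescaled to TPM 4202 of 10460 fell. Mlst8, a core subunit of both mTOR complexes, fell from 2.77, 2.82 and 3.33 normalised FPKM to 1.65, 1.71 and 1.57 (-0.69 ± 0.12, SE, adjusted p = 0.0062, limma). Rps6ka2, a kinase of the RSK family, fell from 5.71, 7.51 and 7.70 to 4.19, 4.21 and 3.45 (-0.74 ± 0.14, SE, adjusted p = 0.0087, limma). Mtor (-0.53), Rptor (-0.47), Tsc1 (-0.58), Tsc2 (-0.42), Larp1 (-0.34) and Eif4ebp2 (-0.34) also fell, and Rheb (+0.45), the GTPase that activates mTOR, rose. The list thus holds activators and inhibitors of mTOR that fell together. After the length correction 1 rose and 2 fell, as with the Y-linked term, and after rescaling to TPM 0 rose and 13 fell.

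Over all genes 14.2% fell, or 4202 of 10460 when rescaled to TPM. Of 8 enzymes that add or remove ubiquitin on the small subunit 7 were tested, and 0 rose and 2 fell. Rescaled to TPM 6 fell, and with the Y-linked term 0 did. Otud3 went from 5.71, 7.12 and 4.89 normalised FPKM to 3.49, 3.82 and 3.84 (-0.59 ± 0.14, SE, adjusted p = 0.0182, limma). Rnf10, a ligase that marks stalled subunits, went from 76.5, 91.9 and 79.9 to 59.5, 53.6 and 64.4 (-0.48 ± 0.12, SE, adjusted p = 0.0195, limma). Of 6 p53 targets, a pathway that free ribosomal proteins can engage through Mdm2, 2 rose and 1 fell; rescaled to TPM, 0 rose and 2 fell, and with the Y-linked term none was called. Ccng1 (+0.69, adjusted p = 0.0184) and Bax (+0.76, adjusted p = 0.0322) rose and Sesn2 (-0.47) fell, by limma.

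Markers of cell types moved in part with the TuD group. Over all tested genes 14.8% rose and 14.2% fell. Marker counts after the length correction, on the TPM scale or with the Y-linked term are not given. Of 6 endothelial markers Egfl7 and Fabp4 rose, and the summed level was 213 to 264 normalised FPKM in the controls and 278 to 374 in the TuD libraries. Of 5 erythroid markers Hba-a1 and Hba-a2 rose, with sums of 1142 to 1607 and 1370 to 3281, which overlap. Of 8 cardiomyocyte markers Tnnt2, Tnni3, Myl2 and Pln rose, with sums of 27870 to 29333 and 30775 to 37519.

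Sums of the remaining lists also overlapped between the groups, except those of the adipocyte markers, which were low. Macrophage markers had 0 of 6 called, with sums of 136 to 160 and 145 to 280. Of 6 fibroblast markers Lum rose and Col1a2 fell, with sums of 136 to 146 and 130 to 181. Of 4 tested smooth muscle and pericyte markers Rgs5 rose, with sums of 124 to 167 and 124 to 240. Lymphocyte markers summed to 3.34 to 6.64 and 4.37 to 398, with 1 tested and 0 called. Adipocyte markers summed to 0.102 to 0.814 and 3.67 to 11.4, and Cfd, the 1 tested, rose. No listed marker was at 0 in all libraries, and the part of these cells in the small-subunit result was not tested.

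Rescaling to TPM, which divides each library by its own FPKM sum, lowered the median log2 fold change of all tested genes to -0.36 and turned 1550 higher and 1489 lower genes into 438 and 4202. On that scale 16 small-subunit transcripts rose and 0 fell, against 4.19% of all genes. Their median of +0.42 lay 0.77 above that of all genes, and Rps2 was at -0.01. The size of the rise in FPKM thus depends on the scaling. Size factors and TPM each divide a library by a single number, so the members' place relative to other genes could change little. With quantile normalization the median was +0.51 for the members and -0.01 for all tested genes.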

How the data were processed

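RNA from 6 mouse heart libraries was made from total RNA with an NEBNext Ultra kit, per the labels' protocols. Per the submitters' processing notes, HISAT2 2.0.5, mm10 and featureCounts 1.5.0-p3 were used; the annotation release and strand setting are not given in the sources used here. The authors deposited FPKM and gene length. Multiplied by length and by the value of a single read, 100% of FPKM above 0 gave integers (tolerance 0.05), or 15.2 to 18.2 M reads per library (M, megareads); 3 reads over 2 kilobases equal an FPKM of 0.0774 to 0.104.

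Normalised FPKM are FPKM over median-of-ratios size factors (0.992 to 1.02). Genes at FPKM 1 or more in at least 3 samples were tested with limma 3.58.1 (lmFit, eBayes with trend; R 4.3.3) on log2(normalised FPKM + 0.5), two-sided, with Benjamini-Hochberg adjustment. Fold changes are on that scale and understate those of low genes. Groups came from the labels. Principal transcripts, lengths and 3′ UTRs came from GENCODE M21 (all 33 members matched, 32 at the same coordinates), and starts and microRNAs from RefSeq. Length trends were removed with lowess (span 0.3). The fit was tested on simulated data.

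Members and lists were chosen with earlier results of these data known. Values were given by rule for the 4 top and the 4 bottom members by fold change, those not passing, a set of members of known role, and 2 genes of each list by p-value. Rps24, other members given by fold change only, and further list members were named after their values were seen. Alternatives changed the scaling, the pseudocount, the filter or the variance model, or used limma-voom on recovered reads, the replicate block, length corrections, a Y-linked covariate and leaving out each library; the transcript length corrections and size factors over all genes were added after seeing the data. Same-numbered samples had correlations of 0.06, 0.09 and -0.06, so the numbers were not taken as pairs. Values of some genes are not reported here.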

Additional observations from a re-analysis of the deposited data

How the results depend on the processing

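The count of 30 higher members became 16 after rescaling to TPM and 15 with the Y-linked covariate, and lay between 28 and 31 when each library was left out, with 0 lower each time. The median log2 fold change of +0.80 became 0.42 after rescaling to TPM, 0.51 with quantile normalization, 0.63 after a gene length correction, 0.46 after a transcript length correction and 0.42 after a correction for transcript length and GC, and ran from 0.67 to 0.89 when each library was left out. With the replicate number as a block 30 members were higher, 0 lower, and the median was 0.80, so the replicate block changed no call. The difference in the share of reads, 0.459 percentage points, became 0.611 without the 10 highest genes. As a share of TPM the difference was 0.392 percentage points, a ratio of 1.30 against 1.55 for reads. Directions turned for Rps2 (-0.0080 with TPM, -0.057 with quantile normalization), Rps27rt (+0.16 without AAV9-EGFP replicate 1, the highest of its values without each library, the lowest being -0.62) and Rps27l (-0.060 after the transcript length and GC correction); the cause was not tested. Rps18 lost its call without AAV9-EGFP replicate 2 (adjusted p = 0.0510, limma). Over all genes, the covariate, which leaves the estimate to 1 TuD library, gave 640 higher and 543 lower, and leaving out each library gave 863 to 1659 higher. Rps2 passed with limma-voom on the recovered reads (adjusted p = 0.0495).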
